A study of Mus musculus with 12 samples.

Results

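The comparison described here is that of quadriceps muscle from dystrophic mice given prednisolone with quadriceps from dystrophic mice given no treatment: 6 arrays, 3 in each group, of the 12 in the series. The members are the 3 samples titled as prednisolone-treated and the 3 titled as untreated. All 12 mice were male, carried utrn+/-;mdx in a C57BL/10 strain, and were 6 weeks old when the muscle was taken. The mdx allele is a mutation of the gene for dystrophin, and the animals also had 1 working copy of the gene for utrophin, a related protein. Untreated mice ate normal chow. The treated mice drank prednisolone, a synthetic glucocorticoid, in water at 1.5 mg/kg per day from 4 to 6 weeks of age. The other 6 mice ate medicated pellets over the same weeks. They received 20 mg/kg of lisinopril a day, together with 100 mg/kg of spironolactone in one group of 3 and with 200 mg/kg of eplerenone in the other. The samples used here hold no healthy mice and none on drug-free pellets, so every difference below is within dystrophic muscle and includes whatever came with the route of dosing. The labels call the samples biological replicates, 1 mouse to an array.

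Glucocorticoids bind the glucocorticoid receptor, a transcription factor that enters the nucleus, activates genes through its response elements and represses others, many of them targets of NF-kappa-B and AP-1. In Duchenne muscular dystrophy prednisolone and related drugs slow the loss of strength, and in healthy muscle the same drugs can cause wasting. Dystrophic muscle is a mixture of fibres that degenerate and regenerate, with infiltrating leukocytes, vessels and connective tissue. An array of the whole muscle cannot tell fewer cells of a type from less RNA per cell. The results turn to transcripts outside the classical inflammatory and metabolic sets: noncoding RNAs, predicted genes and pseudogenes first, then regulators, receptors and families of protein-coding genes.

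Values are deposited log2 signals, and 30412 transcript clusters that the platform annotation pairs with exactly 1 symbol were tested. A change is the mean of the 3 prednisolone arrays minus that of the 3 untreated arrays, given ± SE from a limma fit to all 12 arrays. A cluster passed when its Benjamini-Hochberg adjusted p was under 0.05, and rose or fell is written only of those. The muscle label matched its markers: the mean of 8 myofibre genes ran from 17.82 to 17.90 in untreated arrays and from 18.05 to 18.16 with prednisolone, and 1 of the 8, Des, passed. For neutrophil markers untreated array 1 stood apart from untreated arrays 2 and 3. The mean of 6 neutrophil markers was 7.02, 9.89 and 9.73 in untreated arrays 1 to 3 and lay between 6.53 and 6.96 with prednisolone, and 1 of the 6 fell. The means of the macrophage markers (13.81 to 14.41 untreated against 13.25 to 13.70 with prednisolone), lymphocyte markers (5.30 to 5.38 untreated against 5.01 to 5.06 with prednisolone) and fibroblast and tendon markers (13.08 to 13.46 untreated against 12.96 to 13.05 with prednisolone) did not overlap between the groups either, and 1 of 6 markers fell in each. The mean of 7 endothelial markers was 10.79, 9.69 and 10.67 in the untreated arrays and between 9.70 and 9.88 with prednisolone. The mean of 6 adipocyte markers was 8.26, 7.43 and 7.98 untreated and 10.49, 8.20 and 8.87 with prednisolone, and none of them passed. The part of these cell types in the results below was not tested.

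Of the 30412 clusters 1942 passed (6.39%): 979 rose with prednisolone (3.22%) and 963 fell (3.17%). The groups of 3 arrays did not overlap in 26.7% of all tested clusters. By RefSeq's biotype, of 19290 protein-coding clusters 617 rose and 844 fell (7.57% in all). Of 4828 pseudogene clusters 317 rose and 54 fell (7.68%). Of 3256 long noncoding RNAs 32 rose and 22 fell (1.66%). Among the short RNAs 6 of 644 microRNAs rose and 14 fell (3.11%), 2 of 955 small nucleolar RNAs rose and 9 fell (1.15%), and 1 of 915 small nuclear RNAs rose and 15 fell (1.75%). These classes differ in level, and more clusters passed at higher levels: 0.605% of the dimmest 25% of clusters and 15.4% of the brightest 25%. Among the brightest 11.1% of predicted and noncoding symbols passed, against 17.1% of the other symbols. Differences between the classes were not tested. Counts depended on single arrays: 1942 became 456 without prednisolone array 2, 656 without prednisolone array 1, 842 without untreated array 3 and 938 without untreated array 2.

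**Figure D1:**
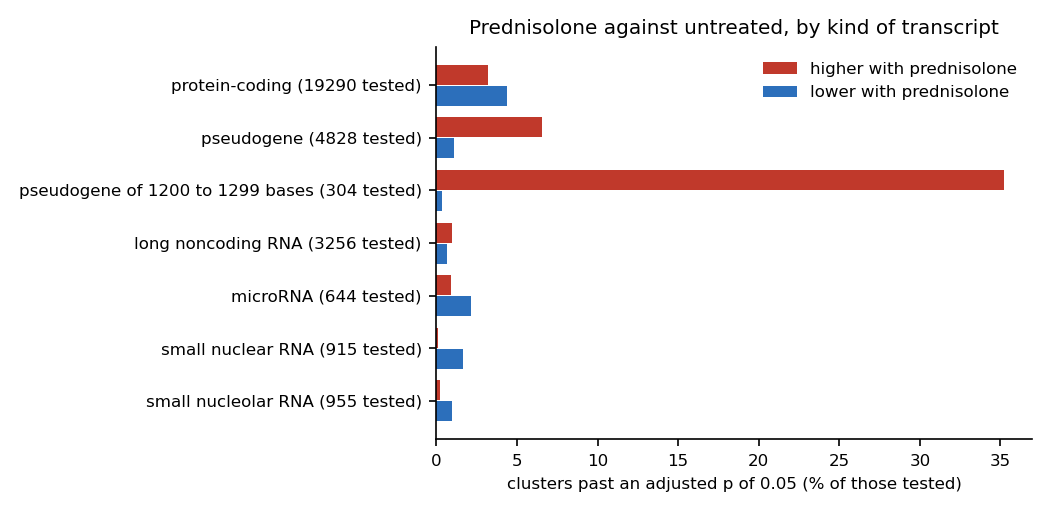
Share of tested clusters that rose (red) or fell (blue) with prednisolone, in percent (x axis), for each kind of transcript (y axis, with the number tested). Pseudogenes rose more often than they fell (317 against 54), and of the 304 that are 1200 to 1299 bases long 107 rose and 1 fell, while small nuclear, small nucleolar and microRNA clusters fell more often than they rose.

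MicroRNAs are short RNAs that pair with messenger RNAs through a seed, bases 2 to 8 of the mature strand, and repress them. They are cut from hairpins that often lie in a longer host transcript. Of the 20 microRNA clusters that passed, 17 had a mature sequence in the RefSeq table used (build GRCm38.p6). Of these, 9 are shown with the seed in capitals, 5′ to 3′, chosen after their values were seen, because a change in the hairpin's level would bear on the targets of that seed.
miR-1a-1-5p: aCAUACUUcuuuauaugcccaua
miR-99a-5p: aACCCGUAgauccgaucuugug
miR-325-3p: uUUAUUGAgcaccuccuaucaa
miR-505-3p: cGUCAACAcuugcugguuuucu
miR-495-3p: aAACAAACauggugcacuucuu
miR-128-3p: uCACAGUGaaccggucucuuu
miR-29b-3p: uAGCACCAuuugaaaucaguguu
miR-103-3p: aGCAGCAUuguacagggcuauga
miR-32-5p: uAUUGCACauuacuaaguugca
For Mir1a-1 the RefSeq table used held only the 5p strand, so the seed of its 3p strand is not shown. No mature sequence listed for these 17 hairpins shared its seed with another of them. The arrays report 1 value for each cluster and do not tell the hairpin, its host transcript and the mature strands apart.

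The muscle microRNA cluster on chromosome 2 rose. Mir1a-1 and Mir133a-2 belong to the families that muscle cells express most specifically, and their host transcript is Mir1a-1hg. All of them lie between Gata5 and Slco4a1 in RefSeq's gene order. Mir1a-1 was at 7.21, 7.25 and 6.62 in the untreated arrays and 8.34, 9.31 and 9.20 in the prednisolone arrays. The groups did not overlap, and the change was 1.93 ± 0.25 (adjusted p = 0.00338). Mir133a-2 was at 5.51, 5.93 and 5.86 untreated and 6.91, 7.60 and 7.11 with prednisolone, a change of 1.44 ± 0.32 (adjusted p = 0.0245). Mir1a-1hg was at 9.02, 10.28 and 9.58 untreated and 10.93, 11.44 and 10.99 with prednisolone, a change of 1.49 ± 0.32 (adjusted p = 0.0211). Untreated array 2 was the highest of its group for the host transcript, and no untreated array reached the prednisolone range in any of the 3. Mir1a-1 stayed past the threshold with any 1 of the 6 arrays left out, while Mir133a-2 lost the call without any array but prednisolone array 3, and Mir1a-1hg without prednisolone array 1, prednisolone array 2 or untreated array 3. A second pair, Mir99a and its host Mir99ahg, lies between Usp25 and Cxadr on chromosome 16. Mir99a was at 5.05, 5.08 and 4.90 in the untreated arrays and 6.10, 6.15 and 6.16 in the prednisolone arrays, so that the arrays of each group lay within a narrow band, and it rose by 1.12 ± 0.12 (adjusted p = 0.00208). Mir99ahg, named after its values were seen, rose by 0.57 ± 0.11 (adjusted p = 0.0125).

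Most other microRNA calls were falls. Mir325 was at 12.68, 12.52 and 12.97 untreated and 10.65, 11.53 and 11.26 with prednisolone and fell by 1.58 ± 0.26 (adjusted p = 0.00769). Mir505 fell by 1.08 ± 0.20 (adjusted p = 0.012), from 7.77, 7.81 and 7.95 to 6.99, 6.48 and 6.83. Mir495, from the imprinted region between Rtl1 and Dio3 on chromosome 12, fell by 0.97 ± 0.21 (adjusted p = 0.024). Mir29b-1 lies between Klf14 and Mkln1 on chromosome 6, as does Lncpint, a long noncoding RNA of the p53 response. Mir29b-1 fell by 0.58 ± 0.13 (adjusted p = 0.0298) and Lncpint by 0.76 ± 0.20 (adjusted p = 0.0496). Mir128-1, Mir32, Mir103-1, Mir1187, Mir1964, Mir2136, Mir3092, Mir3962 and mmu-mir-3061 fell by 0.56 to 0.88, and Mir3088, whose groups overlapped, also fell. Mir680-3, Mir327 and Mir1195 rose by 0.75, 0.68 and 0.63. For Mir325, Mir680-3 and Mir1195 the chromosome in the cluster's name is not the one RefSeq gives, as for 102 of all tested clusters, and which copy they measure is uncertain. Of the 30 microRNA and small nucleolar clusters that passed without overlap, 4 kept the call with any 1 array left out (Mir325, Mir1a-1, Mir99a and the small nucleolar RNA Gm22303). The number of these calls lost was 21 without prednisolone array 1, 24 without prednisolone array 2, 15 without prednisolone array 3, 10 without untreated array 1, 19 without untreated array 2 and 23 without untreated array 3.

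Small nucleolar RNAs guide the chemical modification of ribosomal and small nuclear RNAs. Among the 9 that fell, Gm22303 was at 13.72, 13.85 and 13.81 untreated and 12.41, 12.87 and 12.89 with prednisolone and fell by 1.07 ± 0.15 (adjusted p = 0.00413). Gm22358 followed with a change of -0.93 ± 0.18 and Gm25188 with -0.63 ± 0.15, while Gm26251, Gm23644, Gm23896 and Gm24339 fell by 0.41 to 1.00. Gm22488 had the largest fall of the class, 1.46 ± 0.33 (adjusted p = 0.0258), and lies next to Fbxo32 in RefSeq's order. Snord91a fell by 0.52 ± 0.13 (adjusted p = 0.0347). Gm23141, which lies between Ube3a and Snrpn, rose by 0.80 ± 0.19 (adjusted p = 0.0304), and Gm24143 rose by 0.74. Small nuclear RNAs, the cores of the splicing machinery and their many genomic copies, had a median change of -0.27 over 915 clusters, against -0.01 over all clusters, and 158 of the 915 had a positive change. The median was -0.25 after quantile normalization and -0.29 with equal array medians. The class lay at 0.19, 0.28 and 0.37 in the untreated arrays, relative to each cluster's mean over 12 arrays, and at -0.19, 0.04 and 0.16 with prednisolone. The lowest untreated array was just above the highest prednisolone array. The antagonist arrays ran from -0.34 to 0.10, all below the untreated arrays and within or below the prednisolone range. Prednisolone array 1 was the lowest of its group, and without it only 1 small nuclear RNA passed. Rpph1, the RNA of ribonuclease P, which trims transfer RNAs, was at 17.82, 17.52 and 17.60 in the untreated arrays and 16.94, 16.89 and 16.99 in the prednisolone arrays and fell by 0.71 ± 0.18 (adjusted p = 0.0406).

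Among predicted and noncoding symbols, a class of 11251 clusters picked by the pattern of the name, 373 rose and 119 fell (4.37%, against 6.39% of all clusters). The deepest fall was Gm21887, a transcribed pseudogene on chromosome X. It was at 13.12, 13.67 and 13.50 untreated and 10.49, 10.23 and 10.02 with prednisolone, and fell by 3.18 ± 0.23 (adjusted p = 0.000193). The next was G530011O06Rik, a long noncoding RNA, which was at 8.04, 9.73 and 9.35 untreated and 6.56, 6.06 and 5.77 with prednisolone and fell by 2.91 ± 0.35 (adjusted p = 0.00316). Both lie between Mid1 and Asmt at the edge of the region that chromosomes X and Y share. Erdr1, which RefSeq places between the same genes and which was named after its values were seen, was at 14.90, 15.37 and 15.20 in the untreated arrays and 12.11, 11.85 and 11.59 in the prednisolone arrays and fell by 3.31 ± 0.22 (adjusted p = 0.000193). Copies of this region are alike in sequence, so the 3 clusters may not be independent measurements, and how the authors' probes divide between them is uncertain. The chromosome in the name of the Erdr1 cluster is not the one RefSeq gives, so which copy it measures is uncertain. For Gm21887 and Erdr1 the 6 values fell into bands that were more than 2 log2 units apart, and against untreated array 1 alone the differences were -2.87 and -3.05.

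Several other predicted genes that fell lie beside known interferon-inducible genes. Gm12250, next to Igtp, was at 6.87, 7.06 and 8.42 untreated and 5.19, 5.76 and 4.40 with prednisolone and fell by 2.33 ± 0.43 (adjusted p = 0.0128). Gm18852, next to Gvin1, was at 9.64, 9.57 and 10.89 untreated and 7.75, 8.03 and 8.24 with prednisolone and fell by 2.03 ± 0.33 (adjusted p = 0.00741). Gm5970, next to Iigp1, fell by 1.87 ± 0.44 (adjusted p = 0.0307), and by 1.23 without untreated array 3, its highest. Ifi203-ps, between Ifi204 and Mndal, fell by 1.75 ± 0.29 (adjusted p = 0.00769). Gm4955, between Aim2 and Ifi214, was at 8.46, 8.29 and 8.80 in the untreated arrays and 6.74, 6.83 and 6.75 in the prednisolone arrays and fell by 1.74 ± 0.21 (adjusted p = 0.0031). All of these neighbours belong to GTPase or DNA-sensor families of innate immunity, and since the fall of interferon-response genes in these samples was already known, the predicted genes beside them are no independent support for it. 6330407A03Rik, a long noncoding RNA between Lyn and Rps20, fell by 1.73 ± 0.23 (adjusted p = 0.00375). Gm4899 fell by 1.64 ± 0.32 (adjusted p = 0.016) and Gm15542 by 1.49 ± 0.34 (adjusted p = 0.0267). Of the 12 largest predicted falls 8 kept the call with any 1 array left out, and the number lost was 3 without prednisolone array 1, 4 without prednisolone array 2, 3 without prednisolone array 3, 0 without untreated array 1, 2 without untreated array 2 and 2 without untreated array 3.

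Of the 12 largest rises among predicted and noncoding symbols 6 were pseudogenes, and 4 were the microRNA transcripts described above. Gm13898, which lies between St7 and Wnt2, was at 10.17, 10.15 and 10.06 untreated and 11.86, 12.23 and 11.62 with prednisolone. The 3 untreated arrays lay within 0.2 log2 units of each other, and the rise was 1.78 ± 0.17 (adjusted p = 0.00097). Gm5421, between H60b and Raet1d, was at 11.89, 11.25 and 11.76 untreated and 13.66, 13.55 and 12.79 with prednisolone and rose by 1.70 ± 0.27 (adjusted p = 0.00699). Gm11841, beside the Rbm12b genes, rose by 1.30 ± 0.22 (adjusted p = 0.0088). Gm7820, Gm7741 and Gm14921 rose by 1.18 ± 0.17, 1.17 ± 0.22 and 1.13 ± 0.18. Gm15179 is a long noncoding RNA between Des, which encodes the muscle intermediate filament desmin, and Speg, a kinase of striated muscle. It was at 7.72, 7.55 and 7.07 in the untreated arrays and 8.53, 9.12 and 8.68 in the prednisolone arrays and rose by 1.33 ± 0.18 (adjusted p = 0.00338), while Des itself rose by 0.52 ± 0.08 (adjusted p = 0.00762). 2310002L09Rik, a protein-coding gene without a given name, was at 9.14, 8.89 and 8.95 untreated and 9.97, 10.29 and 10.18 with prednisolone and rose by 1.16 ± 0.15 (adjusted p = 0.00338). Neat1, the scaffold of nuclear paraspeckles, was at 14.73, 14.46 and 14.62 untreated and 15.36, 15.58 and 15.06 with prednisolone and rose by 0.73 ± 0.15 (adjusted p = 0.0207). Of the 30 measured named long noncoding RNAs it was the single rise, with Lncpint and Rpph1 the only falls (10.0%, against 6.39% of all clusters). Of the 12 largest predicted rises 10 kept the call with any 1 array left out, and the number lost was 2 without prednisolone array 1, 2 without prednisolone array 2, 0 without prednisolone array 3, 1 without untreated array 1, 1 without untreated array 2 and 2 without untreated array 3. Neat1 lost its call without prednisolone array 1, prednisolone array 2, untreated array 2 or untreated array 3.

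**Figure D2:**
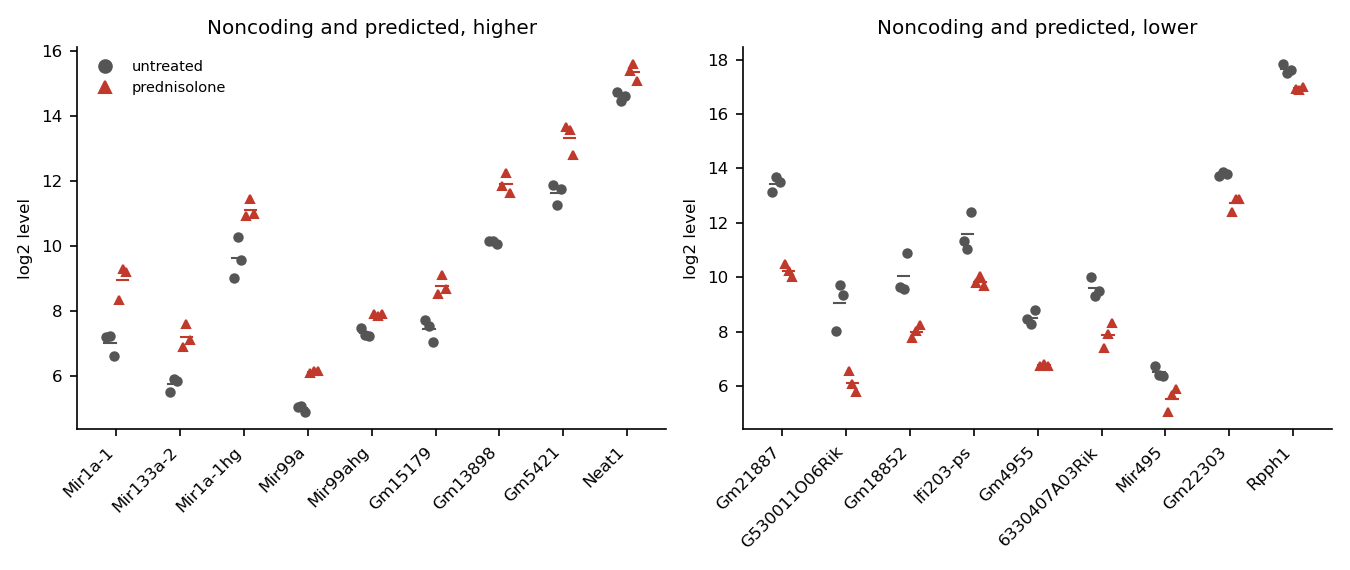
Deposited log2 level (y axis) of 18 noncoding and predicted transcripts (x axis) on each untreated array (grey circles) and each prednisolone array (red triangles), with the group mean as a line, for 9 that rose (left) and 9 that fell (right). In none of the 18 do the groups overlap, which the rule of choice required of most of them. The widest gap is that of Gm21887, from 13.12 in the lowest untreated array to 10.49 in the highest prednisolone array.

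Pseudogenes are copies of genes that have lost their function, and a probe on one may also take up RNA of the parent or of sister copies, so a change cannot be assigned to a locus from these values. The rises were unevenly spread over length, a grouping chosen after the values were seen, and not tested. Of the 304 pseudogenes that RefSeq gives as 1200 to 1299 bases long 107 rose (35.2%) and 1 fell. They made up 6.3% of the tested pseudogenes and 33.8% of those that rose. In the other length classes the share that rose was 2.16% under 400 bases, 4.61% from 400 to 799, 5.99% from 800 to 1199, 6.79% from 1300 to 1999 and 3.79% from 2000 on. The 107 rose by 0.34 to 1.18 (median 0.73), and their mean levels ran from 4.39 to 19.15. Over all 304, each relative to its mean over 12 arrays, the median was -0.06, -0.16 and -0.14 in the untreated arrays and 0.18, 0.27 and 0.12 with prednisolone. Every prednisolone array was above every other array of the series, where the antagonist arrays ran from -0.10 to 0.01. Pseudogenes of other lengths showed no such separation, with medians of 0.00, 0.01 and -0.01 untreated and 0.00, 0.06 and 0.08 with prednisolone. Of the 108 calls in the length class 34 were left without prednisolone array 2. Against untreated array 1 alone the median change of the class was 0.27. The parents of Gm-numbered pseudogenes are not named in the tables used.

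For 194 pseudogenes the symbol holds that of a protein-coding gene, taken here as the parent, which is 1 of 111 protein-coding genes measured on the same arrays. Of these pseudogenes 15 rose and 1 fell, while 7.68% of all pseudogene clusters and 6.39% of all clusters passed. In all 16 the parent's change had the same sign, and the parent itself passed in 2 pairs. Rpl31, Ldha and Rpl7a are each the parent in more than 1 of the 16, so the pairs are not independent. Some parents were near no change, and same signs were not counted over all 194 pairs. Cdc34-ps rose by 0.61 ± 0.08 (adjusted p = 0.00338) and Cdc34, a ubiquitin-conjugating enzyme, by 0.69 ± 0.13 (adjusted p = 0.0128). Got2-ps1 rose by 0.92 ± 0.20 (adjusted p = 0.0221) and Got2, the mitochondrial aspartate transaminase, by 0.74 ± 0.18 (adjusted p = 0.0327). By contrast Ldha-ps and Ldha-ps2 rose by 0.68 and 0.84, while Ldha, lactate dehydrogenase, was at 0.10 ± 0.07 (adjusted p = 0.488). Hspa9-ps1 rose by 0.77 ± 0.15 (adjusted p = 0.014), with Hspa9, the mitochondrial chaperone, at 0.03 ± 0.09 (adjusted p = 0.896). Rpl31-ps21, Rpl31-ps22 and Rpl31-ps24 rose by 0.69, 0.50 and 0.69, with Rpl31 at 0.24 ± 0.15 (adjusted p = 0.371). The other Rpl31 copies did not pass, with changes from -0.23 (Rpl31-ps8) to 0.68 (Rpl31-ps5). Gapdh, the glycolytic enzyme named after its values were seen, was listed at 19.78 to 19.79 in these 6 arrays, at the top of the scale, with a change of 0.0033.

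The protein-coding genes were taken next, leaving out symbols of classical inflammatory, interferon, metabolic, clock, matrix and contractile sets and those described earlier for these data. The 20 largest falls include brakes on growth and signalling. Gadd45g, of a family that halts the cell cycle under stress, was at 11.02, 9.32 and 10.72 in the untreated arrays and 7.74, 7.51 and 7.39 in the prednisolone arrays and fell by 2.81 ± 0.59 (adjusted p = 0.0205). Dusp1, a phosphatase that switches off MAP kinases and that glucocorticoids induce in many cell types, was at 14.89, 13.58 and 13.80 untreated and 12.32, 11.83 and 11.76 with prednisolone and fell by 2.12 ± 0.47 (adjusted p = 0.0256). Untreated array 1 was the highest array for both, and each lost the call without any 1 of the 3 prednisolone arrays or without untreated array 3, and Dusp1 also without untreated array 1. Btg2, an antiproliferative gene of the p53 response, was at 10.56, 8.27 and 9.40 untreated and 7.86, 7.58 and 7.35 with prednisolone and fell by 1.81 ± 0.47 (adjusted p = 0.0444). Mxd1, an antagonist of MYC, was at 8.56, 9.85 and 9.42 in the untreated arrays and 7.82, 7.66 and 7.69 in the prednisolone arrays and fell by 1.55 ± 0.25 (adjusted p = 0.00722), and Bcl3, a partner of NF-kappa-B, fell by 1.65 ± 0.31 (adjusted p = 0.0138). Depp1, a regulator of autophagy downstream of FOXO factors, fell by 2.29 ± 0.50 (adjusted p = 0.0239). Arrdc2, an arrestin-domain protein, was at 8.41, 6.96 and 6.73 untreated and 5.58, 5.52 and 5.47 with prednisolone and fell by 1.84 ± 0.44 (adjusted p = 0.0334). The 3 prednisolone arrays lay within 0.2 log2 units of each other for Arrdc2, while untreated array 1 was the highest by over 1 log2 unit.

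The other large falls follow. Slc10a6, a carrier of steroid sulfates, was at 7.58, 7.31 and 10.00 untreated and 5.74, 5.82 and 5.65 with prednisolone and fell by 2.56 ± 0.56 (adjusted p = 0.0239). Adamts9, a secreted metalloprotease of the matrix, was at 9.88, 9.003 and 11.16 in the untreated arrays and 7.74, 7.60 and 7.66 in the prednisolone arrays and fell by 2.35 ± 0.42 (adjusted p = 0.0108). Untreated array 3 was the highest for both. Tmem252, a transmembrane protein, was at 9.08, 8.12 and 9.52 untreated and 6.62, 6.94 and 6.81 with prednisolone and fell by 2.12 ± 0.32 (adjusted p = 0.00512). Lgals9, which encodes the sugar-binding protein galectin-9, was at 13.48, 13.27 and 13.60 untreated and 11.89, 11.84 and 11.95 with prednisolone. It fell by 1.56 ± 0.11 (adjusted p = 0.000193), one of the smallest p-values of the comparison. Rnf213, a giant ubiquitin ligase, was at 11.48, 11.37 and 12.08 in the untreated arrays and 9.69, 9.67 and 9.81 in the prednisolone arrays and fell by 1.92 ± 0.23 (adjusted p = 0.0027). F5, coagulation factor V, fell by 1.68 ± 0.30 (adjusted p = 0.01), and Gpr65, a receptor that senses protons, by 1.50 ± 0.27 (adjusted p = 0.0106). B4galt5, a glycosyltransferase of glycolipid synthesis, was at 10.71, 12.19 and 11.98 untreated and 9.77, 10.01 and 9.87 with prednisolone and fell by 1.75 ± 0.35 (adjusted p = 0.0164). Untreated array 1 was the lowest of its group for B4galt5, Bcl3, Mxd1 and Litaf, as it was for the neutrophil markers, and against it alone their changes were -0.83, -0.76, -0.83 and -1.04. Coq10b, a coenzyme Q-binding protein of mitochondria, Cytip and Trp53i11 fell by 2.20, 1.68 and 1.51, with untreated array 1 the highest for each. Of the 20 falls 6 kept the call with any 1 array left out (Tmem252, Rnf213, Cytip, Lgals9, Mxd1 and Litaf), and the number lost was 10 without prednisolone array 1, 14 without prednisolone array 2, 6 without prednisolone array 3, 5 without untreated array 1, 3 without untreated array 2 and 6 without untreated array 3.

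The 20 largest rises, chosen by the same rule, include several genes known from muscle fibres. Dhrs7c, a dehydrogenase of the sarcoplasmic reticulum, was at 11.10, 10.28 and 10.38 untreated and 12.30, 12.28 and 11.96 with prednisolone and rose by 1.60 ± 0.20 (adjusted p = 0.00338). Atp1b4, a muscle relative of the sodium pump's beta subunit, was at 9.62, 9.24 and 9.24 in the untreated arrays and 11.15, 11.39 and 10.63 in the prednisolone arrays and rose by 1.69 ± 0.23 (adjusted p = 0.00366). Kcnj12, an inward-rectifier potassium channel, was at 6.40, 5.93 and 6.44 untreated and 7.89, 7.84 and 6.95 with prednisolone and rose by 1.31 ± 0.23 (adjusted p = 0.0102). Fhl3, a LIM-domain protein of skeletal muscle, was at 11.76, 11.48 and 11.39 untreated and 12.87, 13.27 and 12.76 with prednisolone and rose by 1.43 ± 0.18 (adjusted p = 0.00338). Ttll7, a ligase that adds glutamate chains to tubulin, was at 10.89, 10.41 and 10.83 in the untreated arrays and 12.19, 12.26 and 11.87 in the prednisolone arrays and rose by 1.40 ± 0.16 (adjusted p = 0.00217). Lrrc30 rose by 1.60 ± 0.29 (adjusted p = 0.0109), Klhl38 by 1.27 ± 0.28 (adjusted p = 0.0237) and the kinase gene Sbk2 by 1.34 ± 0.20 (adjusted p = 0.00527).

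The other rises follow. Cited2, a regulator that competes for the coactivator p300, was at 11.74, 11.60 and 11.29 untreated and 12.89, 12.94 and 12.99 with prednisolone and rose by 1.40 ± 0.19 (adjusted p = 0.00366). Dusp10, a phosphatase of stress kinases, rose by 1.29 ± 0.21 (adjusted p = 0.0077) while Dusp1 fell. Rxrg, a retinoid X receptor, rose by 1.26 ± 0.25 (adjusted p = 0.0156) and Mc5r, a melanocortin receptor, by 1.38 ± 0.29 (adjusted p = 0.0211). Dpep1, a membrane dipeptidase, was at 10.45, 9.75 and 10.32 in the untreated arrays and 11.88, 11.69 and 11.16 in the prednisolone arrays and rose by 1.40 ± 0.31 (adjusted p = 0.0233). B3galt2 and Aldh1a7 rose by 1.74 ± 0.45 and 1.63 ± 0.42, and in both prednisolone array 1 was the highest by over 1 log2 unit. Sh3rf2, Gsta3, Tpbgl and Exd2 rose by 1.43 ± 0.32, 1.39 ± 0.30, 1.28 ± 0.21 and 1.23 ± 0.18. Of the 20 rises 10 kept the call with any 1 array left out, and the number lost was 8 without prednisolone array 1, 9 without prednisolone array 2, 3 without prednisolone array 3, 0 without untreated array 1, 8 without untreated array 2 and 8 without untreated array 3.

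**Figure D3:**
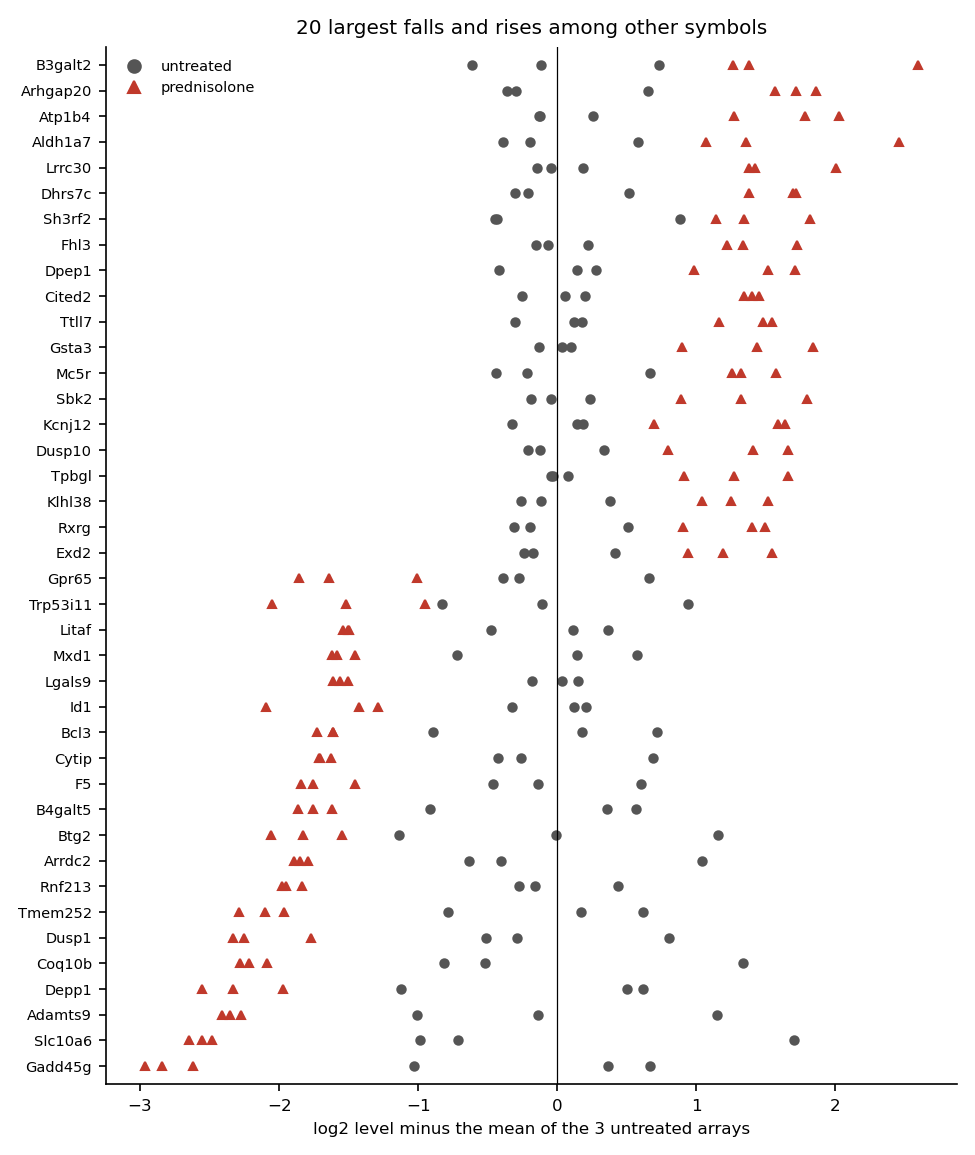
Log2 level on each array minus the mean of the 3 untreated arrays (x axis) for the 20 largest falls and the 20 largest rises among symbols outside the predicted, noncoding and left-out sets (y axis), with untreated arrays as grey circles and prednisolone arrays as red triangles. The groups do not overlap in any of the 40, which the rule of choice required. The untreated arrays spread over more than 2 log2 units for Btg2, Adamts9, Coq10b and Slc10a6 and over less than 0.4 for Lgals9.

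The 35 gene lists hold 1140 measured clusters, of which 56 rose and 76 fell, 11.6% against 6.39% of all clusters. The lists were drawn up with earlier results of these data known, and their counts are descriptions. Of 34 p53 and growth arrest genes 9 fell and 1 rose (29.4%), with a median change of -0.23 against -0.01 over all clusters. Besides Gadd45g and Btg2, the falls were Gadd45a, Ier3, the polo-like kinases Plk2 and Plk3, Tnfrsf10b, which encodes a death receptor, and the survival factors Mcl1 and Bcl2l1. Not all of these act to stop growth: Mcl1 and Bcl2l1 block apoptosis. Mcl1 was at 13.13, 13.41 and 13.34 untreated and 12.48, 12.37 and 12.28 with prednisolone and fell by 0.92 ± 0.10 (adjusted p = 0.00198). Plk3 was at 6.81, 7.27 and 6.88 untreated and 6.02, 5.79 and 5.93 with prednisolone and fell by 1.08 ± 0.14 (adjusted p = 0.00338). Gadd45a fell by 1.16 ± 0.25 (adjusted p = 0.0234), and Phlda3, an inhibitor of AKT, rose by 0.45 ± 0.12 (adjusted p = 0.0467). The number of calls in this list was 4 without prednisolone array 1, 4 without prednisolone array 2, 6 without prednisolone array 3, 13 without untreated array 1, 8 without untreated array 2 and 6 without untreated array 3, and with equal array medians no member rose. Of 22 MAP kinase feedback genes 4 fell and 3 rose (31.8%). Dusp1, Dusp5 (-1.47 ± 0.23), Dusp16 (-0.54 ± 0.10) and Spred1 (-1.02 ± 0.23) fell, and Dusp10, Dusp13 (0.91 ± 0.14) and Dusp27 (0.87 ± 0.18) rose. Dusp13 and Dusp27 are found mainly in skeletal muscle. This list held 4 calls without prednisolone array 1 or 2.

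Of 20 KLF and SP factors 5 fell and none rose (25.0%, against 6.39% of all clusters). Klf6 was at 12.47, 12.59 and 13.31 in the untreated arrays and 11.61, 11.36 and 11.60 in the prednisolone arrays and fell by 1.27 ± 0.24 (adjusted p = 0.0148), and Klf13, Klf7, Klf16 and Klf3 fell by 0.99 ± 0.22, 0.75 ± 0.20, 0.46 ± 0.10 and 0.45 ± 0.09. The number of KLF and SP calls was 1 without prednisolone array 1, 0 without prednisolone array 2, 1 without prednisolone array 3, 4 without untreated array 1, 4 without untreated array 2 and 2 without untreated array 3, and Klf7 was at -0.48 without untreated array 3. In the BMP pathway 4 of 33 fell and none rose (12.1%). Id1 and Id2, inhibitors of differentiation and direct targets of BMP signals, were among them: Id1 was at 9.04, 8.50 and 8.95 untreated and 7.54, 6.74 and 7.41 with prednisolone and fell by 1.60 ± 0.29 (adjusted p = 0.0122), and Id2 fell by 1.37 ± 0.26 (adjusted p = 0.0128). Bmp1, a procollagen protease despite its name, fell by 0.51 ± 0.13, and Fstl1, a secreted binding protein, by 0.80 ± 0.12, and without prednisolone array 2 the list held 1 call. Of the homeobox and T-box list 8 of 47 genes rose and none fell (17.0%, median change 0.26). Hox genes keep a memory of position along the body and limb. Hoxc10, typical of hindlimb, was at 10.997, 10.48 and 10.69 untreated and 11.61, 11.82 and 11.24 with prednisolone and rose by 0.83 ± 0.18 (adjusted p = 0.0229). Hoxc6 was at 8.68, 8.63 and 8.48 in the untreated arrays and 9.37, 9.28 and 9.25 in the prednisolone arrays and rose by 0.70 ± 0.09 (adjusted p = 0.00338), and Six4, a myogenic factor, rose by 0.65 ± 0.10 (adjusted p = 0.00488). Hoxc4, Hoxc5, Hoxa2, Prrx1 and Tbx2 rose by 0.38 to 0.58. The number of calls in this list was 2 without prednisolone array 1, 2 without prednisolone array 2, 5 without prednisolone array 3, 11 without untreated array 1, 3 without untreated array 2 and 2 without untreated array 3, and 6 members rose with equal array medians.

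Substrate receptors of cullin ubiquitin ligases, which pick the proteins to be degraded, included 10 of 48 that rose and none that fell (20.8% against 6.39% of all clusters, with a median change of 0.26). Asb11 was at 10.43, 10.13 and 10.13 untreated and 11.29, 11.26 and 11.24 with prednisolone and rose by 1.03 ± 0.14 (adjusted p = 0.00401). Asb14, Asb12, Asb5 and Asb16 rose by 1.10 ± 0.24, 0.95 ± 0.19, 0.76 ± 0.15 and 0.70 ± 0.13. The Kelch proteins Klhl38, Kbtbd13, Klhl41 and Kbtbd12 rose by 1.27 ± 0.28, 0.91 ± 0.20, 0.50 ± 0.11 and 0.49 ± 0.12. Klhl41 and Kbtbd13 are nemaline myopathy genes, whose products stabilise or tune the thin filament. Fbxo40, a muscle F-box protein that targets an insulin receptor substrate, was at 11.58, 11.05 and 11.38 untreated and 12.24, 12.15 and 11.81 with prednisolone and rose by 0.73 ± 0.17 (adjusted p = 0.0285). For 8 of the 10, untreated array 1 was the highest of its group. The number of calls in this list was 3 without prednisolone array 1, 1 without prednisolone array 2, 7 without prednisolone array 3, 19 without untreated array 1, 2 without untreated array 2 and 3 without untreated array 3. The list of autophagy and lysosome genes had 4 members that rose and 2 that fell, of 46 (13.0%). Atg4a rose by 0.68 ± 0.11 (adjusted p = 0.00742), Map1lc3a, Ulk2 and Rubcn by 0.64, 0.39 and 0.35, and the lysosomal protease Ctsh fell by 0.76 ± 0.13 (adjusted p = 0.00835) beside Depp1. After quantile normalization 7 of its members rose.

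Among genes of RNA handling, of 47 splicing factors 6 fell and 3 rose (19.1%, against 6.39% of all clusters). The share past the threshold was 7.69% for translation factors and tRNA synthetases, 2.44% for ribosome biogenesis and 2.0% for chromatin modifiers. Tra2a was at 11.17, 11.46 and 11.44 in the untreated arrays and 10.10, 10.19 and 10.64 in the prednisolone arrays and fell by 1.05 ± 0.20 (adjusted p = 0.0133), and Tra2b, Ptbp3, Sf3b1, Srsf3 and Hnrnph1 fell by 0.74 ± 0.14, 0.94 ± 0.17, 0.50 ± 0.09, 0.49 ± 0.09 and 0.42 ± 0.10. The rises are factors of striated muscle or differentiation: Rbm24 was at 12.60, 12.29 and 12.08 untreated and 12.92, 13.12 and 13.15 with prednisolone and rose by 0.74 ± 0.13 (adjusted p = 0.0111), Rbm38 rose by 0.89 ± 0.13 (adjusted p = 0.00466) and Srpk3, a muscle kinase of splicing factors, by 0.73 ± 0.15 (adjusted p = 0.0163). The number of splicing calls was 5 without prednisolone array 1, 1 without prednisolone array 2, 11 without prednisolone array 3, 13 without untreated array 1, 6 without untreated array 2 and 5 without untreated array 3. Of 39 translation factors and tRNA synthetases 3 rose, among them Eef2k, which slows elongation, by 0.67 ± 0.15 (adjusted p = 0.0249). Qars and Mars1 rose by 0.42 ± 0.09 and 0.38 ± 0.09. Of 41 ribosome biogenesis genes 1 fell, Utp18, by 0.44 ± 0.10 (adjusted p = 0.0269). Of 50 chromatin modifiers 1 rose, Smyd2, a lysine methyltransferase of muscle and heart, by 0.63 ± 0.10 (adjusted p = 0.00769).

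Several vessel and guidance genes fell. The share past the threshold was 10.3% for angiogenic ligands and receptors and 8.82% for junction proteins. It was 17.1% for semaphorins, plexins, slits and netrins, against 6.39% of all clusters. Of 29 angiogenic ligands and receptors 3 fell and none rose: Aplnr, the apelin receptor of endothelium, was at 8.36, 8.31 and 9.31 untreated and 7.19, 7.42 and 7.63 with prednisolone and fell by 1.25 ± 0.26 (adjusted p = 0.0208), Hif1a fell by 1.38 ± 0.28 (adjusted p = 0.0179) and Nrp2, a co-receptor for VEGF and semaphorins, by 0.59 ± 0.12 (adjusted p = 0.0176). Of 34 junction proteins 3 fell, the endothelial Cdh5 (-1.48 ± 0.26) and Esam (-0.91 ± 0.23) and the connexin Gjc1 (-0.39 ± 0.07). Of 41 semaphorins, plexins, slits and netrins 4 fell and 3 rose. Plxnd1, a plexin of endothelium, was at 11.17, 10.94 and 10.92 in the untreated arrays and 10.15, 9.98 and 10.26 in the prednisolone arrays and fell by 0.88 ± 0.12 (adjusted p = 0.00352), and Robo4, Plxna2 and Sema6b fell by 0.74 ± 0.16, 0.88 ± 0.19 and 0.96 ± 0.18. Sema6c rose by 1.04 ± 0.23 (adjusted p = 0.0229), Slit3 by 0.78 ± 0.20 and Unc5a by 0.43 ± 0.09. Rgs5, of pericytes, fell by 1.12 ± 0.26 (adjusted p = 0.029) and is 1 of the smooth muscle and pericyte markers. The mean of the endothelial markers was above the prednisolone range in untreated arrays 1 and 3 and just below it in untreated array 2, and 1 of the 7, Cdh5, passed. Whether the vessel genes moved with the number of endothelial cells was not tested. Without prednisolone array 2 none of the angiogenic genes and 1 of the junction genes passed.

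Adhesion and trafficking genes went both ways. The share past the threshold was 22.2% for integrins, 16.2% each for the exocytosis and cyclic AMP lists and 2.04% for Wnt genes. Over all clusters it was 6.39%. Of 27 integrin genes 4 fell and 2 rose. Itga6 was at 9.93, 9.38 and 9.94 untreated and 8.46, 8.62 and 8.88 with prednisolone and fell by 1.10 ± 0.16 (adjusted p = 0.00442), and Itga5, Itga4 and Itga9 fell by 1.29 ± 0.33, 0.64 ± 0.14 and 0.52 ± 0.10. Itga7, the laminin receptor of muscle fibres, was at 9.86, 10.26 and 10.11 untreated and 10.63, 10.75 and 11.04 with prednisolone and rose by 0.73 ± 0.18 (adjusted p = 0.0394), and Itgb1bp2, a muscle partner of beta-1 integrin known as melusin, rose by 0.95 ± 0.21 (adjusted p = 0.0268). Itga5 was lowest in untreated array 1, and against that array alone its change was -0.43. Of 37 exocytosis genes 4 fell, Snap23 (-0.56 ± 0.07), Stx7, Stx12 and Vamp3, and 2 rose, Sv2b (0.86 ± 0.18) and the calcium sensor Syt12 (0.69 ± 0.14). In the cyclic AMP pathway 4 of 37 fell and 2 rose. Crem, a factor that binds cyclic AMP response elements, fell by 0.95 ± 0.19 (adjusted p = 0.0172), and the phosphodiesterase Pde4b by 1.05 ± 0.27 (adjusted p = 0.0449), while Pde7a rose by 0.81 ± 0.10 (adjusted p = 0.00338). Plaur, the urokinase receptor, was at 8.36, 9.31 and 8.63 in the untreated arrays and 7.44, 7.34 and 7.36 in the prednisolone arrays and fell by 1.38 ± 0.20 (adjusted p = 0.00413). Of 49 Wnt genes 1 rose (Fzd2), and none of 18 Eph receptors and ephrins or 24 iron-handling genes passed by limma. The nearest were Efnb2 at -0.63 ± 0.18 (adjusted p = 0.0638) and Lcn2 at 1.78 ± 0.48 (adjusted p = 0.0537). Without single arrays the integrins held between 1 and 8 calls, the exocytosis list between 1 and 6 and the cyclic AMP list between 1 and 7, with the fewest without prednisolone array 1 or 2.

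**Figure D4:**
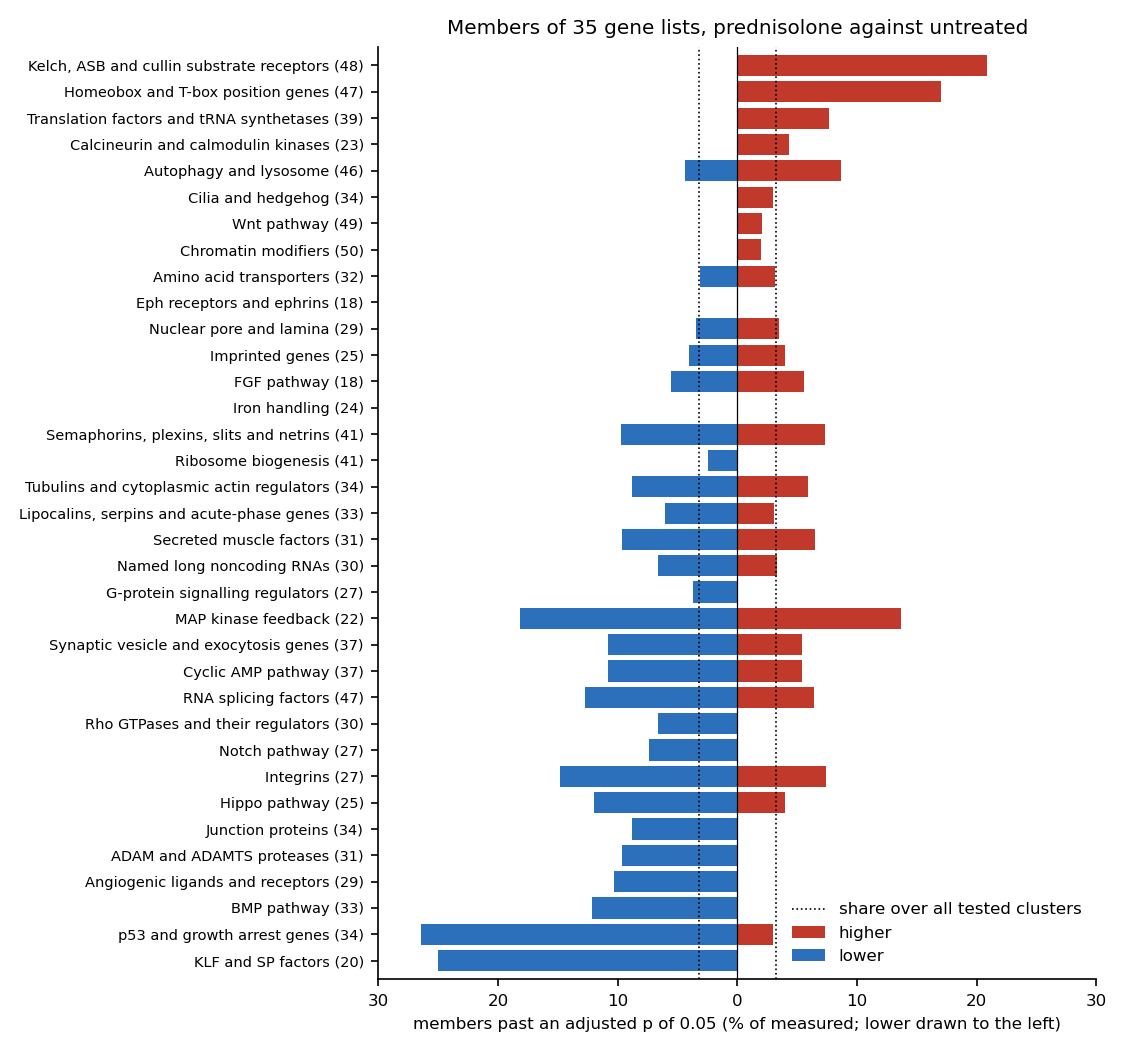
Percent of the measured members of each of 35 gene lists (y axis, number measured in brackets) that rose (red, to the right) or fell (blue, to the left) with prednisolone, with dotted lines at the shares over all tested clusters, 3.22% and 3.17%. Cullin substrate receptors and homeobox genes stand at the top with rises alone, and KLF factors and p53 and growth arrest genes at the bottom, with 5 of 20 and 9 of 34 lower. The dotted lines are not matched to the level of the members.

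Families were also grouped by symbol. The share past the threshold was 15.2% for Rab, 15.9% for tripartite motif and 23.1% for methyltransferase-like genes. It was 8.89% for potassium channel, 11.1% for leucine-rich repeat and 5.31% for Zfp genes, against 6.39% of all clusters. Of 66 Rab GTPases 8 fell and 2 rose, led by Rab8b (-0.92 ± 0.20) and Rab40b (0.53 ± 0.12). Of 63 tripartite motif genes 7 fell, with Trim30a at 9.90, 10.24 and 10.80 untreated and 8.33, 8.32 and 8.37 with prednisolone, a change of -1.97 ± 0.20 (adjusted p = 0.00166), and 3 rose, with Trim54, a protein of the sarcomere, at 0.93 ± 0.18 (adjusted p = 0.0136). Of 26 methyltransferase-like genes 5 rose and 1 fell. Mettl21e, a lysine methyltransferase of skeletal muscle, was at 8.60, 7.90 and 7.75 untreated and 10.61, 10.48 and 9.60 with prednisolone and rose by 2.15 ± 0.30 (adjusted p = 0.00411). Of 90 potassium channel genes 7 rose and 1 fell: Kcnj2, the inward rectifier that sets the resting potential, was at 8.07, 7.87 and 8.08 in the untreated arrays and 9.82, 10.74 and 9.94 in the prednisolone arrays and rose by 2.16 ± 0.36 (adjusted p = 0.0083), and Kcnk6 fell by 0.73 ± 0.16 (adjusted p = 0.0269). Of 72 leucine-rich repeat genes 6 rose, led by Lrrc30, and 2 fell, led by Lrrc8c (-1.30 ± 0.25), a subunit of the volume-regulated anion channel. Of 433 zinc finger genes named Zfp 9 rose and 14 fell, led by Zfp106, a muscle RNA-binding protein, at 0.75 ± 0.12 (adjusted p = 0.00794) and Zfp36, which destabilises cytokine messages, at -2.35 ± 0.33 (adjusted p = 0.00401). Of 98 keratin clusters none passed by limma. Of 1228 olfactory receptors 10 fell and 1 rose (0.896%); most of these clusters are dim, and 0.605% of the dimmest 25% of all clusters passed. Without prednisolone array 2 the calls left were 1 for Rab, 1 for Mettl, 2 for potassium channels, 2 for Lrrc, 5 for Trim, 2 for Zfp and 0 for olfactory receptors.

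The promoters of genes that passed were searched for 6 short motifs, on both strands, from 250 bases before to 50 after each start in the RefSeq table (build GRCm38.p6). A gene counted where any of its promoters held the letters, and motifs were counted separately, so that a promoter may hold several. The cyclic AMP response element TGACGTCA was in 2.49% of 17999 tested genes with a promoter, in 3.35% of 686 that fell and in 1.92% of 522 that rose. The AP-1 site TGANTCA was in 8.56% of all, 11.1% of those that fell and 7.09% of those that rose. The muscle E-box CAGCTG was in 18.2%, 19.8% and 21.8%, and the clock E-box CACGTG in 8.96%, 10.2% and 9.2%, in the same order. The core TAGGTCA, read by ROR and REV-ERB receptors, was in 2.73%, 2.92% and 2.11%. The glucocorticoid response element, the half-sites GNACA and TGTNC with any 3 bases between them, was rare, in 0.539% of all. It was in 0.729% of those that fell and 0.958% of those that rose, which is only 5 genes each. Shares are given as a description, with no test. The windows below show the cyclic AMP response element (capitals) in promoters of 4 genes that fell, Dusp1, Btg2, Plk2 and Tra2a, and of Peg3, an imprinted gene that rose by 0.78 ± 0.20 (adjusted p = 0.0408).
Dusp1 (chr17:26508588-26508635, minus strand, 136 bases before the start): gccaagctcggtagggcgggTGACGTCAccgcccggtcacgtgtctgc
Btg2 (chr1:134079294-134079341, minus strand, 159 bases before the start): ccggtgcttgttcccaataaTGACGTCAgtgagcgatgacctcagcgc
Plk2 (chr13:110394962-110395009, plus strand, 55 bases before the start): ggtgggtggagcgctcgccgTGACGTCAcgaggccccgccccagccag
Tra2a (chr6:49264053-49264099, minus strand, 20 bases before the start): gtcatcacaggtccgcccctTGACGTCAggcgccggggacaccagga
Peg3 (chr7:6730570-6730617, minus strand, 171 bases before the start): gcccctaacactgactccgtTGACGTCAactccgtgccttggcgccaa
The glucocorticoid response element (capitals) is shown where it lies in the promoter of Slc10a6, which fell, and of Car14, a carbonic anhydrase that was chosen after its values were seen and rose by 2.40 ± 0.24 (adjusted p = 0.00154).
Slc10a6 (chr5:103629534-103629586, minus strand, 151 bases before the start): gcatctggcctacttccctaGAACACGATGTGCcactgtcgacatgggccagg
Car14 (chr3:95904878-95904930, minus strand, 213 bases before the start): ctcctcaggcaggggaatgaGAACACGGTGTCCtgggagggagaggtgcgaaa
A match of letters does not show that a factor binds there.

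The last comparison asked how prednisolone-treated muscle differed from muscle of the other treated mice. The untreated arrays cancel out of the difference, but they enter the spread behind its SE and adjusted p. Against the mean of both antagonist combinations 633 clusters passed (2.08%), 279 higher and 354 lower. With equal array medians the split was 175 higher and 537 lower. Both comparisons share the prednisolone arrays: 465 clusters passed in both with the same direction, which is 23.9% of the 1942 and 73.5% of the 633. Gm21887 was at 13.45 ± 0.47 with spironolactone plus lisinopril and 13.11 ± 0.22 with eplerenone plus lisinopril (SD, n = 3), and prednisolone differed from the combinations by -3.03 ± 0.20 (adjusted p = 0.00016). Lgals9 was at 13.08 ± 0.16 with spironolactone plus lisinopril and 13.34 ± 0.07 with eplerenone plus lisinopril, a difference of -1.32 ± 0.09 (adjusted p = 0.000195). Ttll7, Fhl3, Gm13898 and Mettl21e were higher than in the combinations by 1.37 ± 0.14, 1.34 ± 0.16, 1.47 ± 0.14 and 2.14 ± 0.26, all past the threshold. For these genes the combination groups lay near the untreated level. Lcn2, a lipocalin that binds iron carriers, was at 5.58, 6.96 and 7.65 untreated and 9.44, 8.12 and 7.97 with prednisolone and at 5.45 ± 0.29 with spironolactone plus lisinopril and 5.41 ± 0.17 with eplerenone plus lisinopril, and differed from the combinations by 3.08 ± 0.42 (adjusted p = 0.00811).

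Other genes passed against the untreated mice and not against the combinations. Plaur was at 7.31 ± 0.15 with spironolactone plus lisinopril and 7.36 ± 0.14 with eplerenone plus lisinopril, and the difference from prednisolone was 0.04 ± 0.17 (adjusted p = 0.931). Mir99a was at 6.12 ± 0.26 with spironolactone plus lisinopril and 5.76 ± 0.15 with eplerenone plus lisinopril, with a difference of 0.20 ± 0.11 (adjusted p = 0.391), and Mir1a-1hg at 10.75 ± 0.45 with spironolactone plus lisinopril and 10.90 ± 0.35 with eplerenone plus lisinopril, with a difference of 0.29 ± 0.27 (adjusted p = 0.644). At the same locus Mir133a-2 differed by 0.23 ± 0.28 (adjusted p = 0.731). Mir1a-1, however, did pass against the combinations, at 1.03 ± 0.22 (adjusted p = 0.0387). Btg2, Mxd1 and Adamts1, a metalloprotease that fell by 1.53 ± 0.29 (adjusted p = 0.0135) against untreated, differed from the combinations by -0.27 ± 0.40, -0.35 ± 0.22 and -0.25 ± 0.25. Of the 20 largest falls 3 also passed against the combinations (Lgals9, Rnf213 and Gpr65), and of the 20 largest rises 12 did. Those falls and rises were chosen on the comparison with untreated arrays, so these counts describe the genes and test nothing about them as groups. A difference that did not pass does not show equal levels: the SE of these differences ran from 0.11 log2 units for Mir99a to 0.40 for Btg2. The count of 633 was 62 without prednisolone array 2 and 68 without prednisolone array 1.

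**Figure D5:**
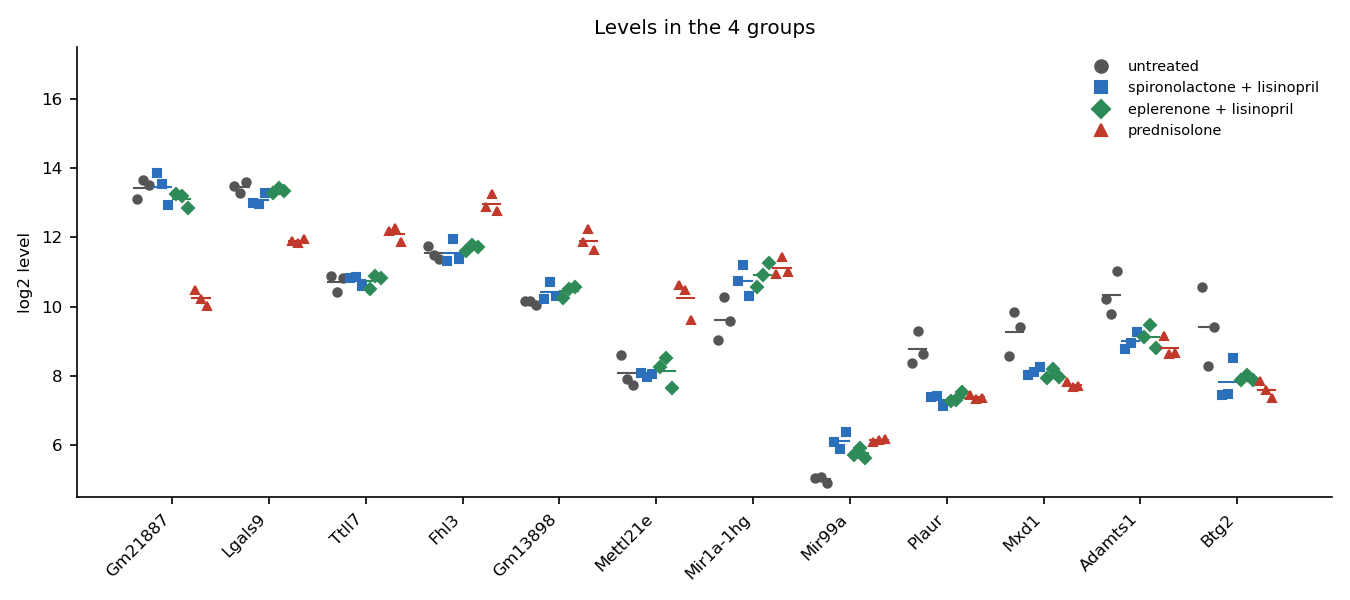
Deposited log2 level (y axis) of 12 transcripts (x axis) on each array of the 4 groups, in the order untreated (grey circles), spironolactone plus lisinopril (blue squares), eplerenone plus lisinopril (green diamonds) and prednisolone (red triangles), with group means as lines. For the first 6 the 3 prednisolone arrays stand apart from all other arrays, and for the last 6 the antagonist groups lie near or overlap the prednisolone arrays.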

How the data were processed

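Total RNA from the quadriceps of 12 mice was amplified, labelled and hybridised to single-channel Affymetrix arrays, 1 mouse to an array. The authors deposited log2 values, and the submitters' processing notes name RMA (background adjustment, quantile normalization and summary of probes), Affymetrix Expression Console and Transcriptome Analysis Console. Versions, the annotation release and the genome build were not given in the sources used here. Between 1.27% and 1.34% of clusters per array lie above 16, the ceiling of a 16-bit scanner in log2, so the values were rescaled at a step not described, and a difference is one of deposited log2 values. Over the tested clusters, the median of an array lay between 5.70 and 5.81. No scanner file was used here, so background and detection are unknown, and 3 arrays a group limit the precision.

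Of 65587 clusters the 30412 that GEO's platform annotation pairs with exactly 1 symbol were fitted with limma 3.58.1 (R 4.3.3): group means over all 12 arrays, eBayes without trend, 8 residual degrees of freedom, and Benjamini-Hochberg adjustment over all 30412. Every adjusted p in the text is from this limma fit unless an alternative is named. An exact permutation test of 3 arrays against 3 cannot go below p = 0.1. Biotypes, neighbours and sequences came from RefSeq tables of build GRCm38.p6. The fit was tested on simulated data. Tables and figures were made with Python 3.11.15, pandas 2.3.3 and matplotlib 3.10.9.

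Genes were named by a rule, among clusters past the threshold whose groups do not overlap: the 12 largest rises and 12 largest falls with a predicted or noncoding name, and each microRNA and small nucleolar RNA; the 20 largest rises and 20 largest falls of other symbols, outside a set of named genes and patterns for inflammatory, interferon, metabolic, clock, matrix and contractile genes; members of 35 lists that passed (or the 2 nearest); and the largest rise and fall of each symbol family. In lists a gene is its brightest cluster, in families every cluster counts. Members, lists and left-out sets were chosen with earlier results of these data known. Replicate numbers were compared across groups: deviations of same-numbered prednisolone and untreated arrays correlated at 0.058, -0.114 and -0.056, so the numbers were not taken to pair the mice. Alternatives were other scaling, a filter on dim clusters, other variance models, array weights, the 6 arrays alone, other sets of clusters, the replicate number as a block, and leaving out arrays.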

Additional observations from a re-analysis of the deposited data

Results flagged for a closer look

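Clusters without a symbol were outside the comparison above. When all 65587 clusters were fitted together with limma, 618 of the 33057 without a symbol passed, 282 higher and 336 lower with prednisolone (1.87%), with changes from -4.99 to 2.37. This was a signal in data that the report does not otherwise use. In the same fit 1243 of the clusters with exactly 1 symbol and 63 of the 2118 with several symbols passed. The deepest fall among unnamed clusters was that of a pair with identical values, whose names place them on chromosome Y. They were at 11.56, 14.04 and 14.28 in the untreated arrays and 8.86, 8.40 and 7.66 in the prednisolone arrays, a change of -4.99 ± 0.57 (limma, adjusted p = 0.00303).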

How the results depend on the processing

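The count of 1942 clusters ran from 1841 to 2644 under other scaling, a filter on dim clusters, other variance models and array weights. With 1 cluster kept for each symbol it was 1943. Among the clusters with exactly 1 symbol it was 1243 when all 65587 clusters were fitted together. It was 584 with only the 6 arrays, 146 against untreated array 1 alone (25 higher), and 456 to 2643 with 1 array left out. A lone untreated array is assumed to vary like the arrays of the other groups. The 492 predicted and noncoding clusters became 142 with the 6 arrays alone, 318 with all clusters tested together, 34 against untreated array 1 alone, and 112 to 657 with 1 array left out. The 633 clusters that differed from the antagonist combinations became 1033 without dim clusters, 1369 with array weights, 418 with all clusters tested together, and 62 to 714 with 1 array left out; 257 passed without eplerenone plus lisinopril array 2, 303 without array 1 of that group and 318 without spironolactone plus lisinopril array 1. The split of those 633 was 266 higher and 276 lower after quantile normalization and 175 higher and 537 lower with equal array medians. With the replicate number as a block 1452 clusters passed against untreated arrays, 381 of them predicted or noncoding, and 294 against the combinations. The replicate numbers did not pair the samples. Over 248 named genes and 17 alternatives no change reversed its sign, 1161 of 4197 values lost the threshold, and 15 genes kept it in every alternative. The cause of these differences was not tested. Detection limits of the arrays are unknown, and clusters of near-identical sequence cannot be told apart.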
